A study of Oryza sativa Japonica Group with 9 samples.

Results

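Sugar transporters of the SWEET, SUT and MST families were followed in laser-captured cortical cells of rice roots with and without arbuscules. The members were all rice genes whose symbol or synonym, with the Os prefix ignored, was SWEET, SUT, MST, TMT or VGT followed by a number. The rule found 20 genes, 14 SWEET, 4 SUT, 2 MST, 0 TMT and 0 VGT. Of these, 18 had a probe set paired with them alone, out of 17905 genes with such a probe set in the series. SWEET3a and SWEET13 had none and were not analysed here. A gene with more than 1 probe set was represented by the one with the highest mean over all arrays.

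The plants were rice of the japonica cultivar Nipponbare, 7 weeks old, all fertilised with a diluted Hoagland solution that contained potassium phosphate. Arbusculated cells held arbuscules of Rhizophagus irregularis, given at planting as 250 spores per plant, systemic cells were fungus-free neighbours of such cells in the colonised roots, and mock cells came from roots given no fungus. Each group had 3 arrays, and each array the RNA of about 2000 pooled captured cells. Whether the samples of a group are from different plants is not given in the labels, and the p-values speak for the spread among these samples alone, and that spread may be technical. A level is an average over the captured cells, and fewer cells of a type cannot be told apart from less RNA per cell.

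Arbuscular mycorrhizal fungi live on carbon from the plant, which reaches them as sugar and as lipid. Sucrose arrives in the root through the phloem, is cleaved by invertases or sucrose synthases, and crosses membranes through carriers of 3 kinds. SWEET proteins let sugar pass along its gradient in either direction, with clades I and II known mostly for hexoses, clade III for sucrose, and clade IV for the vacuole in Arabidopsis. SUT proteins move sucrose together with protons, and MST proteins do the same for glucose and other monosaccharides. In Medicago truncatula a clade I protein, SWEET1b, sits in the membrane around arbuscules, where it carries glucose.

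On 3 arrays the mean correlation across probe sets was higher with another group than with their own. The gap was widest for mock replicate 2 (0.878 with arbusculated arrays, 0.853 with its own group). Mock replicate 1 (0.852 with systemic, 0.85 with its own group) and systemic replicate 3 (0.866 with mock, 0.86 with its own group) showed narrow gaps. The 3' minus 5' difference over 7 pairs of rice control probe sets, a measure of RNA quality, was highest in arbusculated cells, at 0.69 ± 0.46 (log2, SD, n = 3), followed by mock cells at 0.29 ± 0.18 and systemic cells at 0.06 ± 0.41. Its part in the differences below was not tested. A probe set of PT11, a phosphate carrier known from the arbuscule's membrane, followed the labels, at 9.43, 8.91 and 8.30 in arbusculated cells against at most 4.20 in mock and 4.37 in systemic cells. This probe set is not the gene's brightest and was picked with its values in view. Of the other 3 PT11 probe sets, 1 was 2.01 above mock (adjusted p = 0.27, limma), and 2 were lower in arbusculated cells. The brightest, by the rule used for all other genes, differed by -0.33 from mock and -0.51 from systemic cells, and the remaining one by -0.81 and -1.38. None of these 3 passed the test. The mean of all PT11 probe sets did not pass the test (1.47 over mock, adjusted p = 0.235 by limma). Of the other listed markers of arbusculated cells AMT3;1, an ammonium transporter, was measured, 1.01 above mock (adjusted p = 0.298). Its second probe set differed by -0.15 from mock (adjusted p = 0.788, limma). The 5 genes listed as endodermis markers had a median of 0.66 in arbusculated against mock cells. It was 0.55 against systemic cells, where 5 of 5 were higher, and -0.23 in systemic against mock cells. The 1 epidermis marker, CslD1, differed by -0.63, 1.21 and -1.84 in the same order. In limma 0 of these genes passed in any comparison (unadjusted, 1 endodermis gene higher than mock, as were 6.07% of all probe sets). For CASP1, 1 of the endodermis genes, these counts rest on its brightest probe set. The other 2 were lower in arbusculated cells (means 2.94 and 3.18) than in mock (3.40 and 3.58) and systemic cells (3.76 and 3.68).

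No sugar transporter passed the test in any comparison. The test was limma's moderated test in 1 fit of all 9 arrays, with Benjamini-Hochberg adjustment over 57258 probe sets at a threshold of 0.05. In arbusculated against mock cells 0 of 18 members were called, where 0.187% of all probe sets were. In arbusculated against systemic cells 0 of 18 were called, where 0.246% of all probe sets were, and in systemic against mock cells 0 of 18, where 0% of all probe sets were. At an unadjusted p under the same threshold the counts were 1 of 18 members in arbusculated against mock (SWEET1b, lower; 14.2% of all probe sets), 4 of 18 in arbusculated against systemic (MST3, higher; SWEET1b, SWEET5 and SWEET16, lower; 23.9% of all) and 1 of 18 in systemic against mock (MST3, lower; 4.34% of all). The moderated F test over the 3 groups called 0 members, with MST3 lowest at an adjusted p of 0.197. As shares of the members these counts were 5.56%, 22.2% and 5.56%, close to or below the shares of all probe sets. By direction, the unadjusted shares of all probe sets were 8.12% lower against mock and 8.12% higher and 15.7% lower against systemic cells, and 2.54% lower in systemic against mock cells. Of the members, 6, 7 and 7 of 18 lay above 0 in arbusculated against mock, arbusculated against systemic and systemic against mock cells, beside 41.2%, 40.2% and 58.7% of all probe sets. With adjusted p, 0.178% of all probe sets were higher and 0.00873% lower than mock in arbusculated cells, and 0.232% higher and 0.014% lower than systemic cells.

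**Figure D1:**
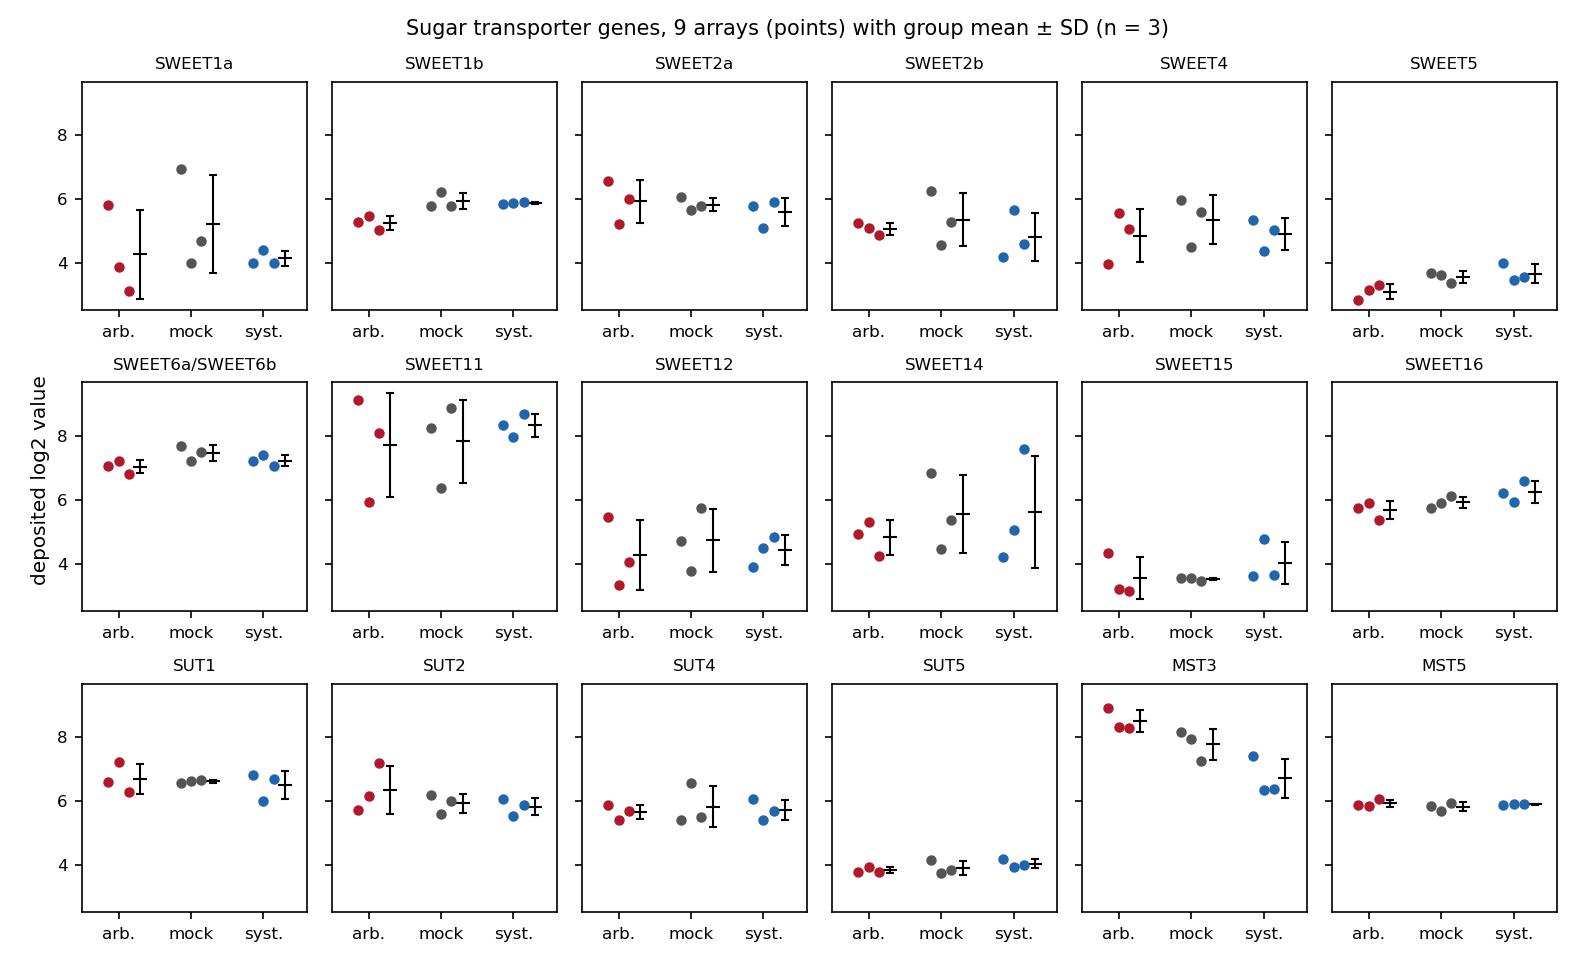
Deposited log2 value (vertical axis, 1 scale for all panels) of the 18 measured sugar transporter genes in arbusculated (arb.), mock and systemic (syst.) cells. Points are the 3 arrays of a group, and the black mark beside them is the group mean with its SD. MST3 runs from 8.50 in arbusculated over 7.77 in mock to 6.70 in systemic cells, while SWEET11 spreads over 3.19 log2 units within the arbusculated group alone.

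MST3 (LOC4342198), a proton-coupled monosaccharide transporter, differed most between cell types. Its log2 values were 8.89, 8.32 and 8.28 in arbusculated cells, 8.15, 7.92 and 7.23 in mock cells, and 7.40, 6.34 and 6.36 in systemic cells. All arbusculated arrays lay above all mock and all systemic arrays, whereas mock and systemic arrays overlapped by 1 array on each side. Arbusculated cells exceeded systemic cells by 1.80 ± 0.37 (log2, SE; 95% interval 0.95 to 2.64; 3.47-fold), which missed the threshold (adjusted p = 0.0975, limma). Over its 19 alternatives that p ran from 0.0695 with array weights to 0.247 without arbusculated replicate 1, and the difference from 1.59 to 2.14. Over mock, the value in arbusculated cells was 0.73 ± 0.37 higher (adjusted p = 0.387). With 1 array left out that difference ran from 0.46 without mock replicate 3 and 0.53 without arbusculated replicate 1 to 0.92 without mock replicate 1, and it was 0.80 without mock replicate 2. Systemic cells differed from mock by -1.07 ± 0.37 (adjusted p = 0.969). The comparisons share groups, so these values are not independent of one another.

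MST3 transcripts are known in rice from root xylem and sclerenchyma among other cells, so markers of those tissues are set beside it. The cellulose synthases of secondary walls, CESA4, CESA7 and CESA9, had mean log2 values of 6.27 to 6.60 in arbusculated, 7.06 to 8.01 in mock and 6.07 to 6.89 in systemic arrays, averaged over the 3 genes. By their brightest probe sets these markers were thus highest in mock cells, where MST3 was intermediate. The second probe set of CESA4 was highest in systemic cells (mean 6.50, against 6.31 in mock and 5.85 in arbusculated cells). Between arbusculated and systemic cells the changes of the brightest probe sets ran from -0.49 to 0.21. In these markers 0 of 3 genes passed in limma in any comparison. Unadjusted, 2 were lower than mock in arbusculated and 1 in systemic cells, beside 8.12% and 2.54% of all probe sets. The endodermis markers, by their brightest probe sets, were, like MST3, higher in arbusculated than in systemic cells, by 0.43 to 1.17. The other probe sets of CASP1, 1 of these markers, were lower in arbusculated cells. The part of either kind of cell in the MST3 values was not tested.

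MST5 (LOC4344808), the other monosaccharide transporter, known in rice from panicles and pollen, showed the narrowest spread of all members. Its values over the 9 arrays ran from 5.68 to 6.04. The difference between arbusculated and mock cells was 0.10 (95% interval -0.30 to 0.50), and that between arbusculated and systemic cells 0.03 (95% interval -0.37 to 0.43). A difference of 1 log2 unit, a 2-fold difference, was outside each of its intervals. Its mean over all arrays was 5.87, near the median of 5.52 over all probe sets. Without detection calls such a value can be background, so these intervals may not bound a difference in transcript.

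Among the SWEET genes of clade I, SWEET1b (LOC4338851), the rice gene of the same name as the Medicago transporter, was lower in arbusculated cells. Its values were 5.28, 5.44 and 5.02 in arbusculated, 5.78, 6.21 and 5.78 in mock, and 5.84, 5.85 and 5.89 in systemic cells. Every arbusculated array lay below every other array, and mock and systemic arrays overlapped. The difference was -0.67 ± 0.21 against mock (95% interval -1.15 to -0.20; adjusted p = 0.29, limma) and -0.61 ± 0.21 against systemic cells (95% interval -1.09 to -0.14; adjusted p = 0.153), neither of which passed. Against mock it was -0.53 without mock replicate 2. These intervals are not adjusted for the number of probe sets tested.

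SWEET1a (LOC4324848), the other SWEET1 gene, varied widely within groups. Its values were 5.80, 3.85 and 3.12 in arbusculated cells, 6.93, 4.0004 and 4.68 in mock cells and 4.0004, 4.40 and 4.0004 in systemic cells. One array in each of the arbusculated and mock groups was high, and all 3 groups overlapped. The difference between arbusculated and mock cells was -0.95 with an interval of -2.87 to 0.97, so that a difference of 1 log2 unit in either direction was hardly detectable with these arrays. SWEET2a (LOC4326868) and SWEET2b (LOC4326923), whose Arabidopsis relative SWEET2 works at the vacuole, differed by 0.10 and -0.29 between arbusculated and mock cells, with overlapping groups in every comparison.

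The 3 measured clade II members were all below mock in arbusculated cells, and none passed. SWEET5 (LOC4339772), described in rice as a galactose transporter, stood at 2.83, 3.14 and 3.29 in arbusculated, 3.67, 3.63 and 3.35 in mock and 3.99, 3.45 and 3.53 in systemic cells. Its arbusculated arrays lay below all the others, though the closest arrays of the arbusculated and mock groups nearly met. The difference was -0.46 ± 0.23 against mock (adjusted p = 0.381, limma) and -0.57 ± 0.23 against systemic cells (adjusted p = 0.187). The gene that carries both names SWEET6a and SWEET6b (LOC4324213) differed by -0.43 ± 0.21 from mock (adjusted p = 0.38), with values of 7.07, 7.21 and 6.81 against 7.68, 7.21 and 7.49. SWEET4 (LOC4329093), a hexose transporter of grain filling in rice, differed by -0.49 ± 0.51 (adjusted p = 0.636). That value depended on single arrays, at -0.043 without arbusculated replicate 1 and -0.92 without mock replicate 2.

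**Figure D2:**
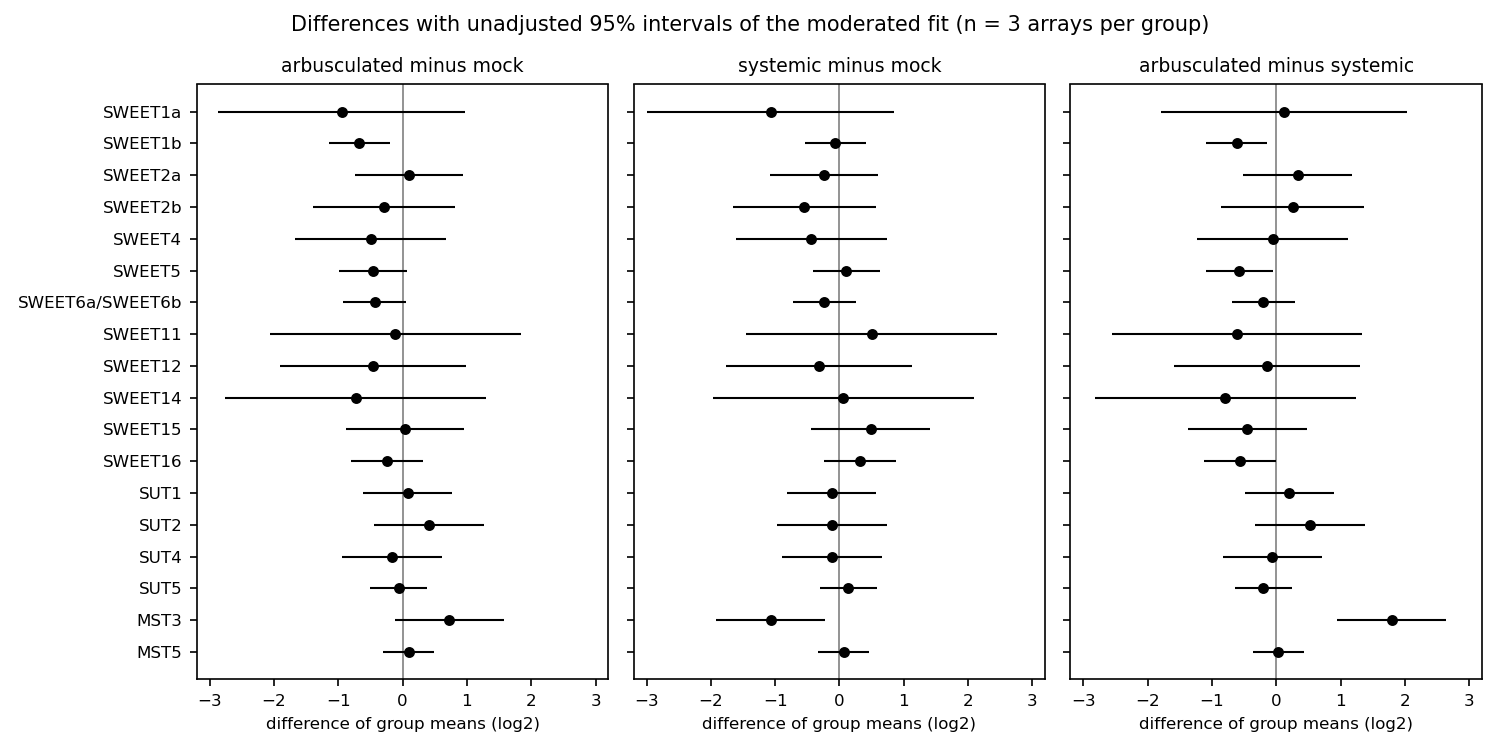
Difference of group means (log2, horizontal axis) for each member, with the 95% interval of the moderated fit, in the 3 comparisons. Intervals are not adjusted for the number of tests. Of the 18 intervals, 1 in arbusculated minus mock (SWEET1b), 1 in systemic minus mock (MST3) and 4 in arbusculated minus systemic (MST3, SWEET1b, SWEET5 and SWEET16) leave out 0.

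Clade III holds the sucrose exporters SWEET11 to SWEET15, of which SWEET11 and SWEET15 are known for filling the rice grain and SWEET11 and SWEET14 as genes that bacterial blight switches on. SWEET11 (LOC4346153) read 9.13, 5.94 and 8.10 in arbusculated cells, 8.23, 6.38 and 8.89 in mock cells and 8.35, 7.96 and 8.69 in systemic cells. The low values were those of arbusculated replicate 2 and mock replicate 2, and the remaining arrays of all groups overlapped. The difference between arbusculated and mock cells was -0.11 (95% interval -2.06 to 1.84). It was 0.78 without arbusculated replicate 2, -0.84 without mock replicate 2 and 0.42 without mock replicate 3.

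SWEET14 (LOC4350572) was high on single arrays, at 6.84 on mock replicate 1 and 7.59 on systemic replicate 3. Its other values lay between 4.19 and 5.36, and the groups overlapped in every comparison. SWEET12 (LOC4332825) had values of 3.32 to 5.46 in arbusculated and 3.77 to 5.73 in mock cells, a difference of -0.46 ± 0.63. SWEET15 (LOC4329464) showed the single case of systemic and mock arrays that did not overlap, with 3.62, 4.76 and 3.64 in systemic and 3.54, 3.55 and 3.47 in mock cells. That difference was 0.49 ± 0.40 (adjusted p = 0.969, limma) with systemic replicate 2 as the 1 high array. Systemic and mock arrays did not overlap in 10.2% of all probe sets, 6.77% higher and 3.4% lower.

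SWEET16 (LOC4332795), the only clade IV member, was lowest in arbusculated cells. Its values were 5.75, 5.91 and 5.38 in arbusculated, 5.76, 5.91 and 6.10 in mock and 6.21, 5.92 and 6.60 in systemic cells. Arbusculated and systemic arrays did not overlap, though the closest pair differed by less than the SD of either group. The difference of -0.56 ± 0.25 did not pass (adjusted p = 0.208, limma), and that against mock was -0.24 (95% interval -0.80 to 0.32).

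Over the 12 measured SWEET genes, 10 were below mock in arbusculated cells, with a median of -0.45, and 0 passed the test. Against systemic cells 9 of 12 were lower, with a median of -0.33. All probe sets had medians of -0.12 and -0.17 in these comparisons, so most features leaned the same way. Over all 18 members the medians were -0.21 against mock and -0.10 against systemic cells, and -0.11 in systemic against mock cells, where all probe sets had 0.07. The 2 SWEET genes above mock in arbusculated cells were SWEET2a and SWEET15, by 0.10 and 0.04.

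None of the 4 sucrose transporters passed the test in any comparison. SUT1 (LOC4331775), the main rice SUT of phloem transport, had values of 6.57, 7.21 and 6.28 in arbusculated, 6.56, 6.63 and 6.64 in mock and 6.80, 5.98 and 6.68 in systemic cells. The groups overlapped, and its difference between arbusculated and mock cells was 0.08 (95% interval -0.61 to 0.77). SUT4 (LOC4331221), which the tables also list under the name SUT2, differed by -0.17 (95% interval -0.94 to 0.61). SUT5 (LOC4329756) differed by -0.06 (95% interval -0.50 to 0.38), at a mean of 3.92 over all arrays, where a value can be background.

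SUT2 (LOC9266530), which exports sucrose from the vacuole, was 0.42 ± 0.37 above mock in arbusculated cells (adjusted p = 0.585, limma). Its values there were 5.70, 6.14 and 7.17, against 6.18, 5.60 and 5.98 in mock cells, so the difference came with 1 high array and was -0.0002 without it. Against systemic cells it was 0.53 (95% interval -0.33 to 1.38). In arbusculated against mock cells the intervals of SUT1, SUT4 and SUT5 stayed within 1 log2 unit of 0 and that of SUT2 reached 1.27. Phloem markers beside them were mixed. FTIP1, a protein of phloem companion cells, was highest in mock cells (mean 4.55, against 3.96 in arbusculated and 3.65 in systemic cells). RPP16, a phloem protein, was highest in arbusculated cells (mean 7.01, against 6.35 in mock and 6.55 in systemic cells), with 1 high array. Over both genes the mean log2 value per array ran from 5.01 to 6.22 in arbusculated, 5.28 to 5.70 in mock and 4.86 to 5.47 in systemic cells. In limma 0 of the 2 passed in any comparison. Unadjusted, FTIP1 was lower than mock in arbusculated and in systemic cells, as were 8.12% and 2.54% of all probe sets. The part of phloem cells in the SUT values was not tested.

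Arbusculated and mock arrays did not overlap for 3 of 18 members, MST3 (higher), SWEET1b and SWEET5 (lower), where 20.7% of all probe sets did not, 6.64% higher and 14% lower. In arbusculated against systemic cells this held for 4 members, MST3 (higher), SWEET1b, SWEET5 and SWEET16 (lower), where the share of all probe sets was 32.1%, with 9.39% higher and 22.7% lower. Arbusculated cells had the lowest mean of the 3 groups for 10 of 18 members and the highest for 5, namely SWEET2a, SUT1, SUT2, MST3 and MST5. The matching shares over all probe sets were not computed. Of all probe sets, 41.2% lay above mock and 40.2% above systemic cells in arbusculated cells, so most leaned down there.

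The precision differed among members. The SE of a difference was 0.17 for MST5 at the lower end and 0.89 for SWEET14 at the upper end, with a median of 0.37. In arbusculated against mock cells 9 of 18 intervals lay within 1 log2 unit of 0, among them those of SUT1, SUT4, SUT5, SWEET15, SWEET16 and MST5, and in arbusculated against systemic cells 5 did. The intervals of the remaining members reached past 1 log2 unit, a 2-fold difference. Of the 9, SUT5, SWEET15 and SWEET5 had low means over all arrays, at 3.92, 3.69 and 3.43. The median over all probe sets was 5.52. Such low values can be background, so these narrow intervals may not bound a difference in transcript. The same limit may hold for MST5, whose mean of 5.87 was near that median. Single arrays carried much of the spread. Mock replicate 1 was the highest of all 9 arrays for 4 members, SWEET1a, SWEET2b, SWEET4 and SWEET6a/SWEET6b, and mock replicate 2 the lowest of the mock arrays for 11 of 18.

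**Figure D3:**
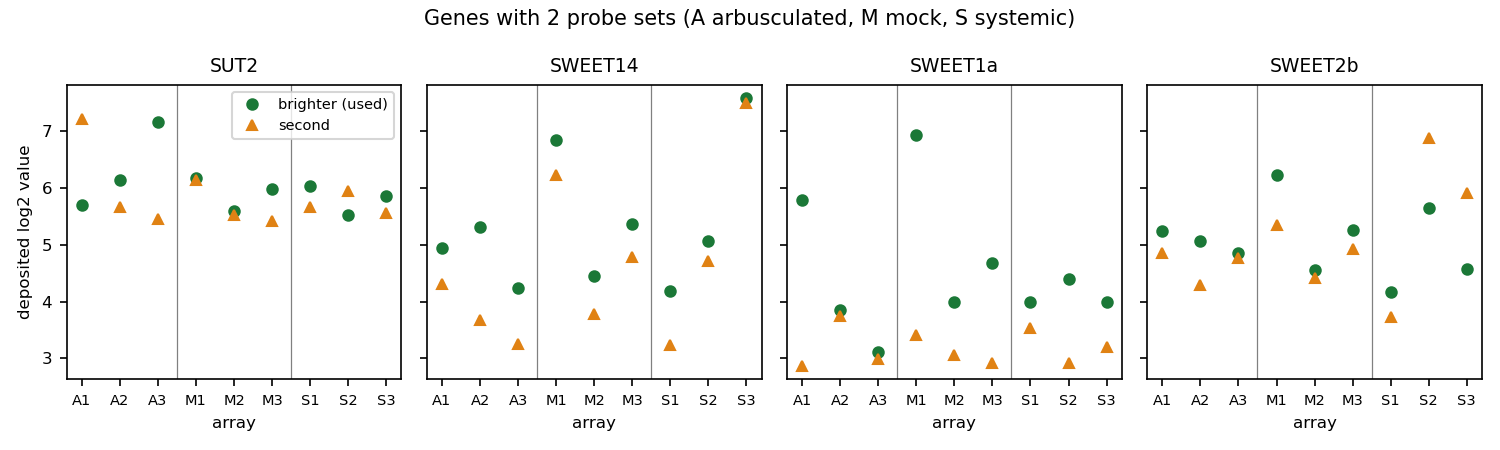
Deposited log2 values of both probe sets of SUT2, SWEET14, SWEET1a and SWEET2b on each of the 9 arrays (A arbusculated, M mock, S systemic). Circles are the brighter probe sets used in the comparisons and triangles the second ones. The 2 probe sets of SWEET14 are both high on systemic array 3, at 7.59 and 7.50, while those of SWEET1a part on mock array 1, at 6.93 and 3.42.

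A second probe set was present for 4 members, and it did not always follow the first. For SWEET14 both were high on the same arrays, and the second differed by -1.19 from mock in arbusculated cells where the first differed by -0.73. The names of these 2 SWEET14 probe sets differ only in the suffix, so they may read the same sequence and are not independent. For SWEET1a the second probe set ran from 2.87 to 3.75 on all arrays and showed 0.07 between arbusculated and mock cells, in place of -0.95. For SWEET2b the second stood at 3.74, 6.88 and 5.91 in systemic cells, so that the difference from mock was 0.61 in place of -0.55.

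For SUT2 the arbusculated array that was high changed with the probe set, from replicate 3 at 7.17 to replicate 1 at 7.21, although the differences from mock were alike at 0.42. None of these second probe sets passed in limma, and the lowest of their adjusted p was 0.401 (SWEET14, arbusculated against systemic). The brighter probe sets of SWEET2b and SWEET14 carry the suffix of sets that can bind other transcripts, so their values may include those. The only probe set of SWEET11 ends in _s_at, a suffix of sets that can match several transcripts, so a similar limit may hold there.

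Enzymes that cleave sucrose supply the hexoses that MST and many SWEET proteins carry. Of 16 genes listed as sucrose synthases (SUS) or as cell wall (CIN) or neutral (NIN) invertases, 13 were measured, and 0 passed in limma in any comparison. At an unadjusted p under the threshold, 2 were higher in arbusculated than in mock cells and 4 higher and 1 lower than in systemic cells. These are 15.4% and 38.5% of the list, beside 14.2% and 23.9% of all probe sets (6.07% higher than mock, and 8.12% higher and 15.7% lower than systemic cells). The list's median was 0.23 against mock and 0.73 against systemic cells, beside -0.12 and -0.17 over all probe sets, and -0.05 in systemic against mock cells. In arbusculated cells 8 of 13 genes were above mock and 11 of 13 above systemic cells, where 41.2% and 40.2% of all probe sets were. These counts rest on the brightest probe sets. The endodermis markers, also by their brightest probe sets, lay above 0 beside the listed genes, in 4 of 5 and 5 of 5 genes. Their mean log2 value per array ran from 6.96 to 8.52 in arbusculated, 7.18 to 7.87 in mock and 7.18 to 7.33 in systemic cells. Lsi1 and Lsi2 were the brightest of these markers, with means over all arrays of 10.46 and 10.61 against 5.20 to 5.92 for the others. The part of endodermis cells in the values of the sucrose cleavage genes was not tested.

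CIN1 (LOC4329561), a cell wall invertase, read 6.02, 6.33 and 6.08 in arbusculated cells, 5.03, 5.73 and 4.22 in mock cells and 4.86, 5.25 and 5.13 in systemic cells. All arbusculated arrays were above all others. The difference was 1.15 ± 0.36 over mock (adjusted p = 0.292, limma) and 1.07 ± 0.36 over systemic cells (adjusted p = 0.151). NIN3 (LOC4329537), a neutral invertase, had 6.49, 6.11 and 5.32 against 4.49, 5.10 and 4.51 in mock and 5.10, 4.20 and 4.96 in systemic cells, again without overlap. It was 1.27 ± 0.37 higher than in mock (adjusted p = 0.281, limma) and 1.22 ± 0.37 higher than in systemic cells (adjusted p = 0.138). Arbusculated arrays lay above all mock arrays for 3 of the 13 measured genes, where 6.64% of all probe sets did. Against systemic arrays they lay above for 4 genes and below for 1, where 9.39% and 22.7% of all probe sets did.

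SUS2 (LOC4340386), a sucrose synthase, was 1.43 ± 0.58 above systemic cells (adjusted p = 0.187, limma), while mock replicate 2, at 10.50, fell within its arbusculated range of 9.72 to 10.66. SUS1 (LOC4333062) was 1.35 ± 0.81 above mock, and its second probe set 0.18. Against systemic cells the first SUS1 probe set differed by 0.82 and the second by -0.38. The second probe set of SUS6 differed by 0.05 from mock and -0.40 from systemic cells, where the first differed by -0.20 and -0.14. NIN1 was 0.73 ± 0.24 above systemic cells (adjusted p = 0.149). The other members above mock in arbusculated cells were SUS2 by 1.19, SUS3 by 0.76, SUS4 by 0.38, NIN1 by 0.23 and CIN4 by 0.06. The SUS3 value rested on 1 array, at 0.041 without arbusculated replicate 2, and that of SUS2 ran from 0.69 without mock replicate 3 to 1.92 without mock replicate 2. Those below were SUS5 by -0.78, CIN3 by -0.47, SUS6 by -0.20, and CIN2 and CIN7 by -0.17 each. CIN3 was the member below systemic cells at the unadjusted threshold, by -0.63 (adjusted p = 0.2), and SUS5 the one below mock in systemic cells, by -1.12 (adjusted p = 0.969).

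**Figure D4:**
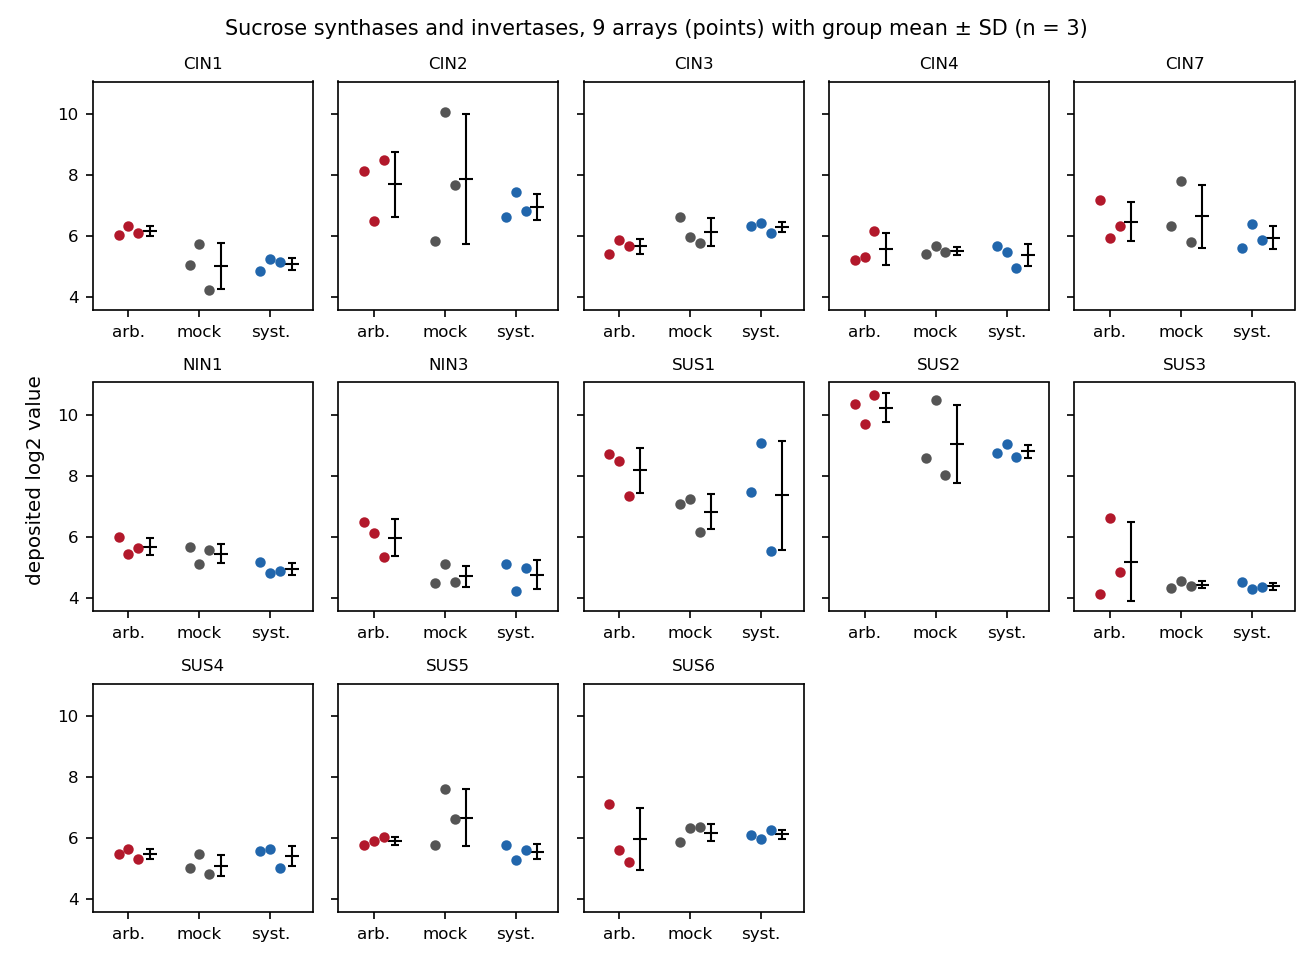
Deposited log2 value (vertical axis) of the 13 measured sucrose synthase and invertase genes in arbusculated (arb.), mock and systemic (syst.) cells, with points for arrays and the group mean and SD beside them. CIN1 and NIN3 are the genes whose arbusculated arrays lie above all arrays of both other groups. Of all probe sets, 6.64% lie so above mock and 9.39% above systemic arrays, and the share above both was not computed.

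Other steps of sugar use were followed by list. Sucrose synthesis (5 measured genes), hexose phosphorylation (8) and trehalose phosphate phosphatases (8) had 0 genes past the test in any comparison in limma. Their medians in arbusculated against mock cells were 0.32, 0.38 and -0.25. At an unadjusted p under the threshold they had 0, 0 and 1 genes in that comparison, 2, 1 and 0 in arbusculated against systemic cells, and 0, 1 and 0 in systemic against mock cells. The shares over all probe sets were 14.2%, 23.9% and 4.34%. The plastid phosphate exchangers, which pass phosphorylated compounds across the plastid envelope, had 1 of 4 genes past the test in arbusculated against mock cells. There 0.187% of all probe sets passed. In the other comparisons 0 of 4 passed in limma. At an unadjusted p under the threshold, 2 were higher than mock, 1 higher than systemic cells and 0 differed in systemic against mock cells. For 1 of the 2 higher than mock, a second probe set differed by -0.41 from mock in arbusculated cells. PPT1 (LOC4346653), the phosphoenolpyruvate carrier, rose over mock by 2.17 ± 0.31 (adjusted p = 0.0445), but leaving out any single array ended its call (adjusted p from 0.0604 without systemic replicate 1 to 0.156 without mock replicate 1), while the difference ran from 1.98 to 2.41. The list of other sugar and polyol carriers held no gene once a name shared with another protein was left out.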

How the data were processed

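RNA of captured cells was hybridised to 9 single-colour rice arrays. The deposited values are on a log2 scale, 1 for each probe set, and RMA made them, per the submitters' processing notes. Neither the RMA version nor the set of probe definitions is given in the sources used here. RMA corrects background, equalises distributions and summarises probes. No detection calls come with the values, so a low value can be background. Precision is limited by the 3 arrays of each group.

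Of 57381 probe sets, 123 controls were left out and 57258 tested with limma 3.58.1 in R 4.3.3, in 1 fit of all arrays without covariates, two-sided. The platform annotation paired 22436 probe sets with 1 gene and 95 with several. Names came from RefSeq assembly ASM3414082v1. A gene was represented by its probe set with the highest mean. The intervals are unadjusted 95% intervals of the fit. The script was tested on simulated data. Every measured member and sucrose cleavage gene was named, and of other lists the members past the threshold. The members and lists were chosen with earlier results of these data known. From the lists, 6 genes whose synonyms name other proteins were left out after names were seen. Same-numbered arrays had correlations of deviations from -0.285 to 0.0388, and replicate numbers were not used as pairs.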

Additional observations from a re-analysis of the deposited data

How the results depend on the processing

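In each comparison 0 of the measured sugar transporters passed under any of the alternatives, which were trend and robust moderation, fits of 6 arrays, array weights, a replicate block, a further quantile normalisation, cyclic loess, median centring, brighter probe sets (10 of 18 members kept), no _x_at probe sets (16 kept), the mean of a gene's probe sets, a 2-fold minimum, and leaving out each array. Among members, the lowest adjusted p over them was 0.182 in arbusculated against mock, 0.0695 in arbusculated against systemic and 0.769 in systemic against mock cells. Members changed sign in up to 3, 4 and 5 cases per alternative, respectively. The 2-fold minimum can only remove calls of the main fit, so its 0 was fixed in advance.

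The count over all probe sets moved more. In arbusculated against mock cells it was 107, and 44 with 6 arrays, 32 with the replicate block, 67 among brighter probe sets and from 20 to 169 with 1 array left out (20, 169 and 33 without mock replicates 1, 2 and 3, 28 and 50 without arbusculated replicates 1 and 2, 64 and 71 without systemic replicates 1 and 3). In arbusculated against systemic cells it was 141, and 92 with trend and robust moderation, 11 with 6 arrays, 14 with the replicate block and from 25 to 126 with 1 array left out (25, 57 and 90 without arbusculated replicates 1, 2 and 3, 81 and 62 without mock replicates 1 and 3, 44, 36 and 33 without systemic replicates 1, 2 and 3). In systemic against mock cells it was 0, and from 0 to 3 with 1 array left out. The cause was not tested. The replicate block changed no call of a sugar transporter, with MST3 at an adjusted p of 0.113 against systemic cells, and ended that of PPT1 (0.171). PPT1 also missed the threshold with 6 arrays (0.113), array weights (0.0601) and a further quantile normalisation (0.0786).

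Each of 114 differences of named genes was recomputed under 17 to 19 alternatives. Over all these recomputed values the sign turned in 99 cases, 73 of them with 1 array left out. A difference can count more than once among them. In 0 of the 99 was the turned value past the threshold. With array weights the sign turned in arbusculated against mock cells for CIN2 (0.040), CIN4 (-0.0025), CIN7 (0.31), SUS6 (0.052), SUT1 (-0.0007) and SWEET11 (0.027), arbusculated against systemic cells for SUS6 (0.16), SUT4 (0.0067) and SWEET12 (0.21) and systemic against mock cells for SUS2 (0.073). With cyclic loess the sign turned in arbusculated against mock cells for SUT5 (0.024), arbusculated against systemic cells for CesA9 (0.11), SUS6 (0.023), SUT4 (0.13), SWEET12 (0.035) and SWEET4 (0.14) and systemic against mock cells for MST5 (-0.0035), NIN3 (-0.026) and SWEET14 (-0.014). With median centring the sign turned in arbusculated against systemic cells for SUT4 (0.0063) and SWEET4 (0.010). With a further quantile normalisation the sign turned in arbusculated against systemic cells for SWEET4 (0.040). With the mean of a gene's probe sets the sign turned in arbusculated against systemic cells for CesA4 (-0.22) and SWEET2b (-0.31) and systemic against mock cells for SUS6 (0.20) and SWEET2b (0.033). With 1 array left out, values in arbusculated against mock cells spanned 0 for CIN2 (-1.18 to 0.94), CIN4 (-0.25 to 0.24), CIN7 (-0.59 to 0.41), RPP16 (-0.14 to 1.15), SUS6 (-0.77 to 0.19), SUT1 (-0.18 to 0.28), SUT2 (-0.0002 to 0.73), SUT4 (-0.38 to 0.20), SUT5 (-0.15 to 0.062), SWEET11 (-0.84 to 0.78), SWEET12 (-1.05 to 0.040), SWEET15 (-0.35 to 0.24), SWEET2a (-0.23 to 0.45) and SWEET2b (-0.69 to 0.15). With 1 array left out, values in arbusculated against systemic cells spanned 0 for CIN4 (-0.10 to 0.38), CesA4 (-0.0043 to 0.37), CesA9 (-0.38 to 0.13), MST5 (-0.034 to 0.074), RPP16 (-0.34 to 0.96), SUS1 (-0.094 to 1.68), SUS4 (-0.12 to 0.19), SUS6 (-0.72 to 0.24), SUT1 (-0.061 to 0.40), SUT4 (-0.21 to 0.11), SWEET11 (-1.31 to 0.28), SWEET12 (-0.74 to 0.33), SWEET14 (-1.50 to 0.20), SWEET1a (-0.65 to 0.69), SWEET2b (-0.061 to 0.68) and SWEET4 (-0.41 to 0.40). With 1 array left out, values in systemic against mock cells spanned 0 for CIN1 (-0.30 to 0.46), CIN2 (-1.91 to 0.20), CIN3 (-0.019 to 0.41), CIN4 (-0.30 to 0.053), MST5 (-0.0037 to 0.12), NIN3 (-0.12 to 0.33), RPP16 (-0.061 to 0.39), SUS1 (-0.33 to 1.45), SUS2 (-0.74 to 0.49), SUS3 (-0.11 to 0.016), SUS6 (-0.21 to 0.032), SUT1 (-0.28 to 0.13), SUT2 (-0.27 to 0.032), SUT4 (-0.33 to 0.26), SWEET11 (-0.23 to 1.03), SWEET12 (-0.80 to 0.18), SWEET14 (-0.92 to 0.77), SWEET1b (-0.13 to 0.080), SWEET2a (-0.39 to 0.012) and SWEET5 (-0.057 to 0.21). The cause was not tested.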
